A study of Mus musculus with 12 samples.

Results

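The 34 genes described here serve protein folding inside the endoplasmic reticulum (ER) and the unfolded protein response, and were read in bulk RNA-seq of mouse hippocampus. They were listed by symbol according to their function, with earlier results of these data known, and each symbol was matched to its Ensembl identifier; all 34 were found among the 56980 identifiers of the count table, and all 34 were among the 19152 genes tested. They comprise 14 genes of ER folding, 2 of translocation into the ER, 8 of ER-associated degradation (ERAD), 3 of the IRE1 arm, 1 of the ATF6 arm and 6 of the PERK arm.

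Hippocampi came from 12 male mice, in 4 groups of 3 libraries, and every mouse carried the AppNL-G-F knock-in, a humanised App gene with mutations of familial Alzheimer disease in its own locus. The groups were AppNL-G-F alone at 3 months and at 9 months (below, App-KI) and AppNL-G-F with Trem2 KO at 3 months and at 9 months (below, Trem2-KO). Trem2 encodes a receptor of microglia, and the study used its loss to ask how glia respond to amyloid. Each library's label carries its own mouse identifier, and libraries are numbered 1 to 3 within a group in order of accession. Mice without the knock-in were not analysed here, so age and amyloid load cannot be told apart. The sources used here do not say which part of Trem2 is deleted.

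The ER folds secreted and membrane proteins with the help of chaperones, sugar-binding lectins and enzymes that form disulphide bonds, and ERAD exports those that fail to fold for destruction. When unfolded proteins build up, 3 sensors in the ER membrane respond. IRE1 splices the mRNA of the transcription factor XBP1, ATF6 is itself cut to release a transcription factor, and PERK phosphorylates eIF2alpha, which lowers translation in general but raises that of ATF4. XBP1 and ATF6 act mainly on chaperone and ERAD genes, and ATF4 on genes of amino acid metabolism, redox balance and stress signalling, among them CHOP (Ddit3). ATF6 and XBP1 with the factor NF-Y bind the ER stress response element (ERSE), in which a CCAAT box and a CCACG box stand 9 bases apart.

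Promoters are shown first, because 5 of the 9 members that fell in Trem2-KO hippocampus at 3 months carry this element. RefSeq windows on GRCm38.p6, from 250 bases before to 50 bases after the start of a gene, were found for 30 of the 34 members; Atf6, Derl1, Hyou1 and Manf had none. The element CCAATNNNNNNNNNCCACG, searched on both strands, was present in 9 of these 30 members and in 39 of all 32851 windows (0.119%). It was in 7 of 12 folding genes and 2 of 7 ERAD genes, and in 0 of 3 IRE1-arm, 0 of 2 translocation and 0 of 6 PERK-arm genes. The sites follow with their position on GRCm38.p6 and their strand, written along the element with both boxes in capitals.
Hspa5, chr2:34772025-34772043, plus: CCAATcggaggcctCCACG
Calr, chr8:84847075-84847093, plus: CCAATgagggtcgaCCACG
Canx, chr11:50325800-50325818, minus: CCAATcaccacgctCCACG
Creld2, chr15:88819520-88819538, minus: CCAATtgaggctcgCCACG
Dnajc3, chr14:118937827-118937845, plus: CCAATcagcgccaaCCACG
Pdia6, chr12:17266491-17266509, plus: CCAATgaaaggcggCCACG
Hsp90b1, nearer site, chr10:86705533-86705551, plus: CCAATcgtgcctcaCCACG
Hsp90b1, farther site, chr10:86705638-86705656, minus: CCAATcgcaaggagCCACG
Derl3, chr10:75893242-75893260, minus: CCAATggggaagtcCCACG
Syvn1, chr19:6046532-6046550, plus: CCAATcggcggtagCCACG
Between the boxes the 9 bases differed from gene to gene. The farthest site began 212 bases before a start (Hsp90b1) and the nearest ended 26 bases before it (Syvn1).

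Other response elements were rarer among the members. The second form of the element (ERSE-II), with the boxes ATTGG and CCACG 1 base apart, was in the windows of Dnajb11 and Herpud1 (0.0365% of all windows). The core TGACGTGG, which XBP1 binds, was in 0 of the 30 members (0.676% of all windows). The element TGATGCAA, bound by ATF4 with a C/EBP partner, was in Chac1, a target of that factor, and in Herpud1 (0.895% of all windows). A match is a run of letters in this window and not a measured binding site. The 250 bases before the start are printed below for Hspa5 and Calr, for Derl3, and for Eif2ak3, a PERK-arm gene whose window held no ERSE; each reads 5′ to 3′ along the gene, with the ERSE in capitals in whichever direction it lies.
Hspa5, chr2:34771840-34772089, plus: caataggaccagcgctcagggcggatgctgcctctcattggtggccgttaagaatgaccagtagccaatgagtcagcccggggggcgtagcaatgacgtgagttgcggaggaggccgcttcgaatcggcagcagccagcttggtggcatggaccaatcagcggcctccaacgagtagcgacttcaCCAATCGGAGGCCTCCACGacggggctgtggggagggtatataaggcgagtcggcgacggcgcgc
Calr, chr8:84846932-84847181, minus: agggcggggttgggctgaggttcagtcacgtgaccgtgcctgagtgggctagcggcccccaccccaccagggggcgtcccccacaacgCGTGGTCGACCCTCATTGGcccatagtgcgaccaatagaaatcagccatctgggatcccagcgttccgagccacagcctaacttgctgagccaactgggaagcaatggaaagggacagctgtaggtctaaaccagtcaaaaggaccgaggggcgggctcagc
Derl3, chr10:75893148-75893397, plus: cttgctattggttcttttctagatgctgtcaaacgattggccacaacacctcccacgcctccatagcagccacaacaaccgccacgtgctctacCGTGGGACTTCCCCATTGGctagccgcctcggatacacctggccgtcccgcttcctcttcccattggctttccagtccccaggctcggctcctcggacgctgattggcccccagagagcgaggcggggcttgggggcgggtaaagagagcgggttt
Eif2ak3, chr6:70844265-70844514, plus: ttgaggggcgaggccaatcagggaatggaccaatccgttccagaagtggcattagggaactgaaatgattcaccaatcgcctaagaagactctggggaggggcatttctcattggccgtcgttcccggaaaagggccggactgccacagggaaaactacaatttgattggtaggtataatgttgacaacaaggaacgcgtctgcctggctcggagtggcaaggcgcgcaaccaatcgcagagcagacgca
Hspa5 reads its element forwards, whereas Calr and Derl3 read theirs in reverse, so that the CCAAT box appears as ATTGG.

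Total counts were 14627892 to 24594655 per library, and the level that 0 reads still leaves possible, taken as 3 counts, was 0.122 to 0.205 CPM (read counts scaled to a common library size). Mitochondrial genes took 1.15% to 1.37% of counts. At 3 months Trem2 stood at 9.19 ± 1.15 CPM in App-KI (SD, n = 3), compared with 1.98 ± 0.165 CPM in the knockout. At 9 months its level was 52.7 ± 2.90 CPM in App-KI and 3.74 ± 0.110 CPM in the knockout. Summed markers of hippocampal neurons were 8510 to 9796 CPM in every library. Choroid plexus markers, from tissue that lies against the hippocampus, were uneven, at 343 to 7847 CPM. At 3 months the summed level of 12 microglial markers was 624 to 657 CPM in App-KI, against 598 to 619 CPM in Trem2-KO. At 9 months the ranges were 1610 to 1727 CPM and 939 to 1023 CPM. No marker was at 0 in all libraries. In bulk tissue, fewer cells of a type and less RNA per cell cannot be told apart. The p-values below are edgeR quasi-likelihood tests adjusted by Benjamini-Hochberg over all 19152 genes, and a gene is said to rise or fall where the adjusted p is below 0.05; they measure the spread between these mice.

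At 3 months, ER folding genes were lower in Trem2-KO than in App-KI hippocampus. Among the 34 members 9 fell and 0 rose, whereas 0.423% of all tested genes fell and 0.167% rose. The members that fell were the chaperones and folding factors Hsp90b1, Calr, Pdia6, Hyou1, Dnajb11 and Creld2, the ERAD genes Derl3 and Sel1l, and the transcription factor Xbp1. In 23 of the 34 members all 3 Trem2-KO libraries lay below all 3 App-KI libraries, against 8.94% of all genes. The median log2 fold change was -0.26 over the members and 0.00 over all tested genes. At an unadjusted p below 0.05 stood 20 members, and DESeq2 found 16 lower and 0 higher, where it found 1.06% of all genes lower.

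The call at 3 months also depended on which libraries set the spread. The count of members that fell was 4 without App-KI library 2 at 3 months, 5 without Trem2-KO library 1, 3 without Trem2-KO library 3, and 17 without App-KI library 3 at 9 months. With only the 6 libraries of 3 months it was 17 (0.835% of all genes then fell). Over all genes, 113 were called in either direction in the main fit. Without the libraries named above, in the order given, that number was 33, 54, 26 and 154. Calr, Pdia6 and Xbp1 fell in all 12 fits that left out a library.

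**Figure D1:**
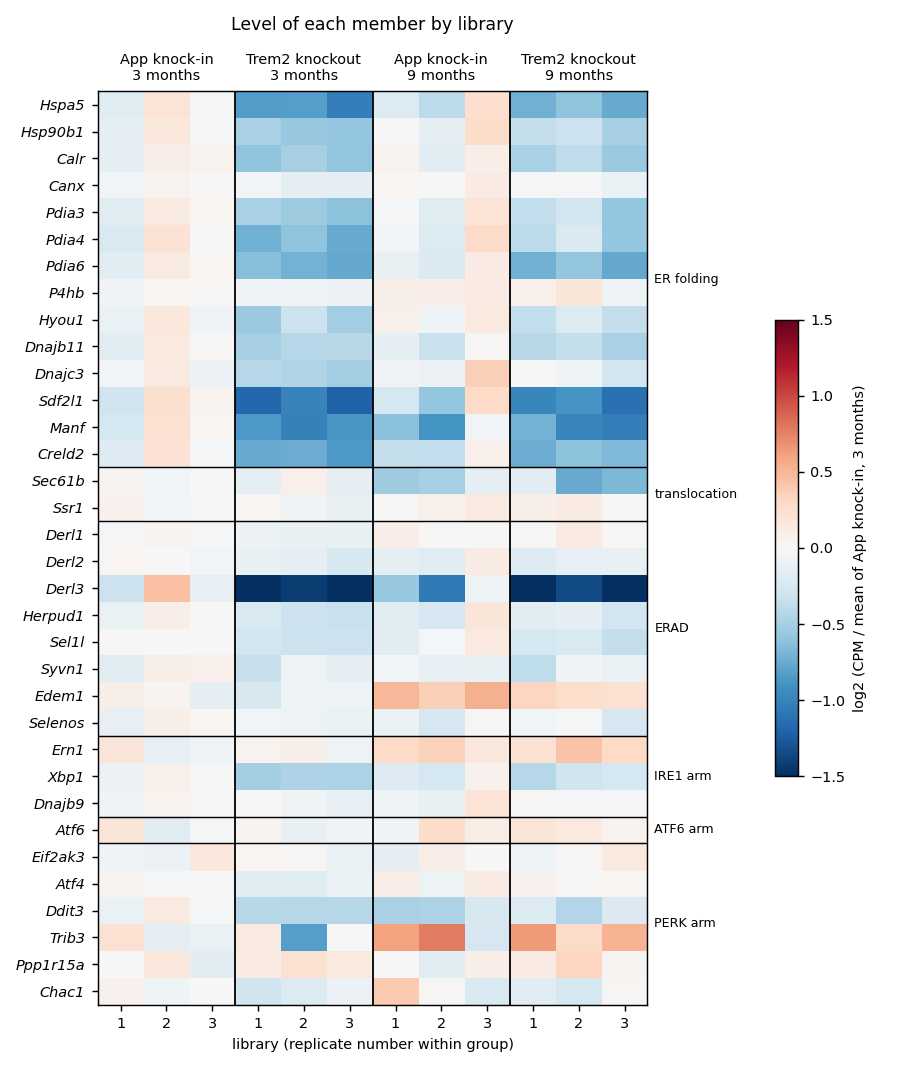
Level of each member (rows) in each of the 12 libraries (columns), as log2 of its CPM over the mean of the 3 App-KI libraries at 3 months, with the colour scale ending at 1.5 in either direction. The folding genes are blue in all 3 Trem2-KO libraries at 3 months except for Canx and P4hb, which are nearly white, and Derl3 passes the lower end of the scale.

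Among the folding genes, 6 of 14 fell at 3 months, all 14 had a negative fold change and all 14 had groups that did not overlap, with a median log2 fold change of -0.56. Pdia6, a protein disulphide isomerase, was at 288, 356 and 332 CPM in App-KI and at 207, 198 and 190.4 CPM in Trem2-KO. It fell by 0.71 ± 0.09 on the log2 scale (SE; adjusted p = 0.005471). The lowest App-KI library was above the highest Trem2-KO library. Calr, the lectin chaperone calreticulin, was at 604, 714 and 692 CPM in App-KI and at 441, 474 and 445 CPM in Trem2-KO. Its log2 level fell by 0.56 ± 0.07 (adjusted p = 0.00113). Creld2, a secreted ER stress protein with disulphide isomerase activity, was at 39.8, 52.8 and 44.9 CPM in App-KI and at 26.9, 27.1 and 25.1 CPM in Trem2-KO. For Creld2 the fall was by 0.79 ± 0.12 (adjusted p = 0.005344).

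Hsp90b1, the ER form of Hsp90 (GRP94), fell by 0.55 ± 0.10 (adjusted p = 0.03826), from 570.1, 705 and 629 CPM to 453, 428 and 421 CPM. Hyou1, a nucleotide exchange factor for BiP, fell by 0.46 ± 0.09 (adjusted p = 0.01374), from 39.0, 46.5 and 40.3 CPM to 28.4, 33.5 and 29.1 CPM. Dnajb11, an ER DnaJ partner of BiP, fell by 0.45 ± 0.08 (adjusted p = 0.01846), from 102, 126 and 115 CPM to 80.4, 84.5 and 85.5 CPM. In each of these 3 genes the groups did not overlap. Of the 3, the call for Hsp90b1 was the least stable, with 4 of the 12 fits that left out a library.

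The folding genes with the largest fold changes were not all called. Hspa5 encodes BiP, the Hsp70 chaperone of the ER that holds the stress sensors inactive. It was at 837, 1094 and 939.9 CPM in App-KI and at 533, 536 and 467 CPM in Trem2-KO, a log2 difference of -0.90 ± 0.16 with an adjusted p of 0.05837, just outside the threshold in edgeR. DESeq2 gave an adjusted p of 6.289e-05 for the same gene. Sdf2l1, a cofactor of BiP, differed by -1.14 ± 0.22 (adjusted p = 0.0625), and Manf, a secreted protein that is kept in the ER by BiP, by -0.93 ± 0.22 (adjusted p = 0.1322). Pdia4 (-0.70), Pdia3 (-0.55), both disulphide isomerases, and Dnajc3 (-0.47), a co-chaperone that also inhibits PERK, had adjusted p values of 0.05147 to 0.1162. All 6 had groups that did not overlap, and DESeq2 called all 6 lower.

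Of the other folding genes, 2 differed little. Canx, the membrane lectin calnexin, was at 722, 768 and 738 CPM in App-KI and at 719.7, 668 and 673 CPM in Trem2-KO, a log2 difference of -0.11 with a 95% interval of -0.22 to -0.01. P4hb, protein disulphide isomerase itself, was at 156 to 165 CPM in App-KI and at 151 to 156 CPM in Trem2-KO, a log2 difference of -0.07 with an interval of -0.18 to 0.05. Both intervals end short of the median of the folding genes, -0.56. Canx carries an ERSE, and P4hb carries a CCACG box but no complete element.

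At 9 months all 14 folding genes again had negative fold changes, 5 of them fell and 11 had groups that did not overlap, with a median of -0.42 on the log2 scale. Of all 34 members, 7 fell and 0 rose, whereas 1.39% of all tested genes fell and 0.684% rose. They were Hsp90b1, Calr, Pdia6, Hyou1, Creld2, Derl3 and Sel1l, and all 7 had also fallen at 3 months; the groups of the 2 ages share no library. Groups did not overlap for 15 members lower in Trem2-KO (9.04% of all genes), and the members' median log2 fold change was -0.16. At an unadjusted p below 0.05 stood 14 members, and DESeq2 found 11 lower, where it found 2% of all genes lower. Without App-KI library 1 at 9 months 3 members fell, without App-KI library 3 2 fell, without Trem2-KO library 1 3 fell and without Trem2-KO library 3 2 fell. With only the 6 libraries of 9 months the count was 3 (1.16% of all genes). Over all genes, 398 were called in either direction in the main fit. Without the libraries just named, in the order given, that number was 241, 175, 213 and 556.

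Pdia6 at 9 months was at 300.0, 279 and 354 CPM in App-KI and at 196, 215 and 189.6 CPM in Trem2-KO, and fell by 0.63 ± 0.09 (adjusted p = 0.002796). Calr was at 694, 598 and 717 CPM in App-KI and at 475, 515 and 456 CPM in Trem2-KO, and fell by 0.47 ± 0.07 (adjusted p = 0.001038). Both fell in all 12 fits that left out a library. Creld2 was at 35.5, 35.3 and 47.8 CPM in App-KI and at 27.1, 29.7 and 28.7 CPM in Trem2-KO, and fell by 0.47 ± 0.12 (adjusted p = 0.04754). The groups of Creld2 stood apart, although App-KI library 3 was well above the other two. Hsp90b1 fell by 0.45 ± 0.10 (adjusted p = 0.043) and Hyou1 by 0.37 ± 0.09 (adjusted p = 0.02528). Hspa5 was at 828, 723 and 1131 CPM in App-KI and at 577, 625 and 562 CPM in Trem2-KO, a log2 difference of -0.60 ± 0.16 that did not pass (adjusted p = 0.1309).

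**Figure D2:**
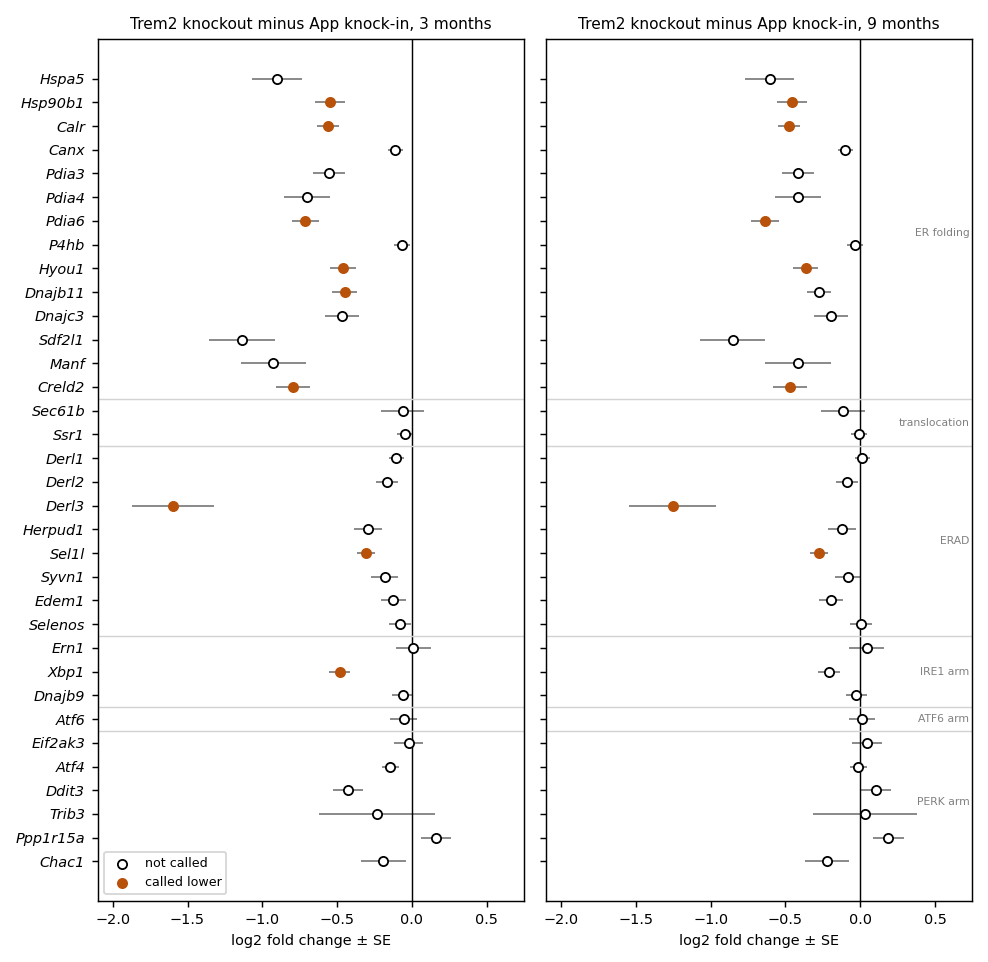
Log2 fold change of Trem2-KO against App-KI (points; bars, SE) for each member at 3 months (left) and 9 months (right), 3 libraries a group, with filled points where the adjusted p was below 0.05. Derl3 stands farthest to the left at both ages (-1.60 and -1.25), and the PERK-arm genes lie around 0 at 9 months.

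Cell-type markers differed between genotypes as well, and not alike at the 2 ages. At 3 months 0 of 12 microglial markers passed the test (edgeR; 3 at an unadjusted p below 0.05), while 1 of 8 endothelial markers was lower. The endothelial scores did not overlap (mean log2 CPM of 5.06 to 5.09 in App-KI, 4.92 to 5.03 in Trem2-KO). Microglial scores were also lower in Trem2-KO without overlap (5.5379 to 5.6098 in App-KI, 5.4496 to 5.4995 in Trem2-KO). The same held for astrocyte scores (7.9992 to 8.054 in App-KI, 7.9494 to 7.989 in Trem2-KO). The folding genes had a median log2 fold change of -0.56 at that age. By 9 months 11 of 12 microglial, 3 of 8 oligodendrocyte precursor and 2 of 10 astrocyte markers were lower in Trem2-KO and 1 of 8 endothelial markers was higher, and the median log2 fold change of the folding genes was -0.42. Summed meningeal fibroblast markers overlapped between genotypes at 3 months (166 to 214 CPM in App-KI, 153 to 228 in Trem2-KO) and did not at 9 months (160 to 193 and 244 to 374 CPM). With the meningeal score as a covariate 0 members passed at 9 months, where the score and genotype move together and cannot be told apart. The median SE over all genes then rose from 0.123 to 0.232, and the genes called in either direction dropped from 398 to 31. With the choroid plexus score as a covariate 17 members fell at 3 months and 12 at 9 months. Over all genes 177 and 528 were then called in either direction, against 113 and 398 without a covariate. The part that cell composition has in these differences was not tested.

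In ERAD, 2 of 8 genes fell at each age, with a median log2 fold change of -0.17 at 3 months and of -0.105 at 9 months. Derl3 encodes derlin-3, a membrane component of ERAD induced by ER stress. Its level was 3.30, 5.65 and 3.81 CPM in App-KI and 1.30, 1.54 and 1.30 CPM in Trem2-KO at 3 months, which are low values but above the level of 3 counts. Derl3 fell by 1.60 ± 0.28 (adjusted p = 0.007568), a decrease by 67.0% in CPM. At 9 months it was at 2.80, 1.98 and 3.94 CPM in App-KI and at 0.927, 1.63 and 1.06 CPM in Trem2-KO, and fell by 1.25 ± 0.29 (adjusted p = 0.02404). Derl3 is abundant in plasma cells. At 3 months the 9 plasma and B cell markers summed to 7.31 to 10.8 CPM in App-KI and to 10.8 to 11.95 CPM in Trem2-KO, while their mean log2 CPM, in which a single abundant gene weighs less, was -1.70 to -1.54 in App-KI and lower, at -1.97 to -1.73, in Trem2-KO. At 9 months the sums were 23.9 to 51.2 CPM and 22.2 to 51.0 CPM and overlapped, as did the mean log2 CPM (-1.46 to -0.65 and -1.24 to -0.57). Their part in the fall of Derl3 was not tested. The other derlins differed less, with Derl1 at -0.10 and Derl2 at -0.16 at 3 months, and neither passed.

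Sel1l, the scaffold of the HRD1 ubiquitin ligase complex, was at 295, 297 and 297 CPM in App-KI and at 245, 237 and 237 CPM in Trem2-KO at 3 months. It fell by 0.31 ± 0.06 (adjusted p = 0.01958), and by 0.27 ± 0.06 at 9 months (adjusted p = 0.01733), when App-KI was at 264, 292 and 329 CPM and Trem2-KO at 248, 253 and 231 CPM. Both pairs of groups stood apart, by a narrow margin at 9 months. Syvn1, which encodes the HRD1 ligase itself and carries an ERSE, overlapped between genotypes at both ages, with log2 differences of -0.18 and -0.08. Herpud1, an ERAD adaptor with an ERSE-II, was at 86.1, 99.1 and 92.0 CPM in App-KI and at 78.9, 74.3 and 72.96 CPM in Trem2-KO at 3 months (-0.29 ± 0.09, adjusted p = 0.22). Edem1, which delivers misfolded glycoproteins to ERAD, and Selenos, a selenoprotein of the export complex, were at -0.12 and -0.08 and did not pass.

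Among the sensors and their nearest targets, Xbp1 was the one gene that fell, and it did so at 3 months. Xbp1, the factor whose mRNA IRE1 splices, was at 202, 226 and 216 CPM in App-KI at 3 months, against 151, 155 and 155 CPM in Trem2-KO, and fell by 0.48 ± 0.07 (adjusted p = 0.004077). At 9 months App-KI was at 188, 179 and 225 CPM and Trem2-KO at 159, 174 and 178 CPM, a log2 difference of -0.21 ± 0.07 that did not pass (adjusted p = 0.1687). The test of the difference between the ages gave 0.27 ± 0.10 (adjusted p = 0.5861), so that a smaller difference at 9 months was not shown. Gene counts do not separate spliced from unspliced Xbp1. Ern1, which encodes IRE1, differed by 0.01 at 3 months (95% interval -0.24 to 0.25), and Dnajb9, an ER DnaJ protein induced through XBP1, by -0.06 (interval -0.21 to 0.09). Atf6, the only member of its arm, was at 53.7 to 68.7 CPM in App-KI and at 56.1 to 62.3 CPM in Trem2-KO at 3 months, a log2 difference of -0.06 (interval -0.24 to 0.13), and of 0.01 at 9 months.

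No PERK-arm gene passed between genotypes in edgeR. At 3 months 3 of 6 were lower in Trem2-KO with groups that did not overlap, against 8.94% of all genes. Chac1, 1 of these 3, had an unadjusted p of 0.2162 (edgeR). With edgeR 0 of 6 passed at 3 months (2 at an unadjusted p below 0.05; 1 with DESeq2) and 0 of 6 at 9 months (0 and 0). Ddit3 encodes CHOP, a factor that links lasting ER stress to cell death. It was at 19.2, 22.6 and 20.2 CPM in App-KI and at 15.5, 15.3 and 15.3 CPM in Trem2-KO at 3 months, a log2 difference of -0.43 ± 0.10 just outside the threshold (adjusted p = 0.05138) that DESeq2 called (adjusted p = 0.01603). At 9 months the groups overlapped, with 14.8, 15.02 and 17.5 CPM in App-KI and 17.8, 15.2 and 17.7 CPM in Trem2-KO (0.11 ± 0.10, adjusted p = 0.701). The Ddit3 locus has 2 identifiers of that name, and the other was at 0 in all libraries, so its counts may be incomplete.

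Atf4, the factor whose translation PERK raises, was at 80.6, 77.6 and 76.6 CPM in App-KI and at 69.8, 69.2 and 73.2 CPM in Trem2-KO at 3 months (-0.15 ± 0.06, adjusted p = 0.3201), and differed by -0.01 at 9 months. Eif2ak3, which encodes PERK, differed by -0.02 at 3 months (95% interval -0.23 to 0.18) and by 0.05 at 9 months (interval -0.16 to 0.25). Ppp1r15a, which encodes the GADD34 subunit that reverses eIF2alpha phosphorylation, was the one PERK-arm gene with a positive difference at both ages, at 0.16 and 0.19, and passed at neither (adjusted p of 0.6041 and 0.4415). Chac1, a glutathione-degrading enzyme, differed by -0.19 and -0.22. Trib3, a pseudokinase induced by CHOP, was at 0.352 to 1.07 CPM over all libraries, and its 95% interval at 3 months, -1.04 to 0.58, left its direction unknown.

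Side by side, the arms had median log2 fold changes at 3 months of -0.56 for folding, -0.17 for ERAD, -0.06 for the IRE1 arm and -0.17 for the PERK arm. In the older mice these 4 medians came to -0.42, -0.105, -0.02 and 0.04. The pair of translocation genes, Sec61b of the SEC61 channel and Ssr1 of the TRAP complex, differed by -0.06 and -0.05 at 3 months and by -0.11 and -0.01 at 9 months, and 0 passed with edgeR (0 at an unadjusted p below 0.05, and 0 with DESeq2). As mean log2 CPM, the folding genes ran from 7.44 to 7.75 in App-KI and from 6.96 to 7.04 in Trem2-KO at 3 months, and from 7.35 to 7.77 and from 7.04 to 7.22 at 9 months. For the PERK arm the ranges were 3.56 to 3.61 and 3.37 to 3.49 at 3 months, and 3.50 to 3.65 and 3.57 to 3.66 at 9 months. ERAD scores were 5.73 to 5.91 in App-KI against 5.44 to 5.498 in Trem2-KO at 3 months, and 5.62 to 5.91 against 5.46 to 5.62 at 9 months, where the groups barely stood apart. The IRE1 arm was at 5.69 to 5.72 against 5.48 to 5.56 at 3 months, and at 5.70 to 5.86 against 5.65 to 5.74 at 9 months. Folding scores thus stood apart between genotypes at both ages, and IRE1-arm and PERK-arm scores at 3 months. ERAD scores did so at 3 months, and at 9 months only just (lowest App-KI 5.624, highest Trem2-KO 5.6211). Of the 8 ERAD genes, 3 had groups apart and lower at 9 months (9.04% of all genes). The ERAD score includes Derl3, at 0.927 to 3.94 CPM in the libraries of 9 months. Of the 3 IRE1-arm genes only Xbp1 (-0.48) had groups apart at 3 months, while Ern1 (0.01) and Dnajb9 (-0.06) overlapped. The PERK-arm score includes Trib3, at 0.352 to 0.734 CPM in the libraries of 3 months. No test of an arm against an arm was made.

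**Figure D3:**
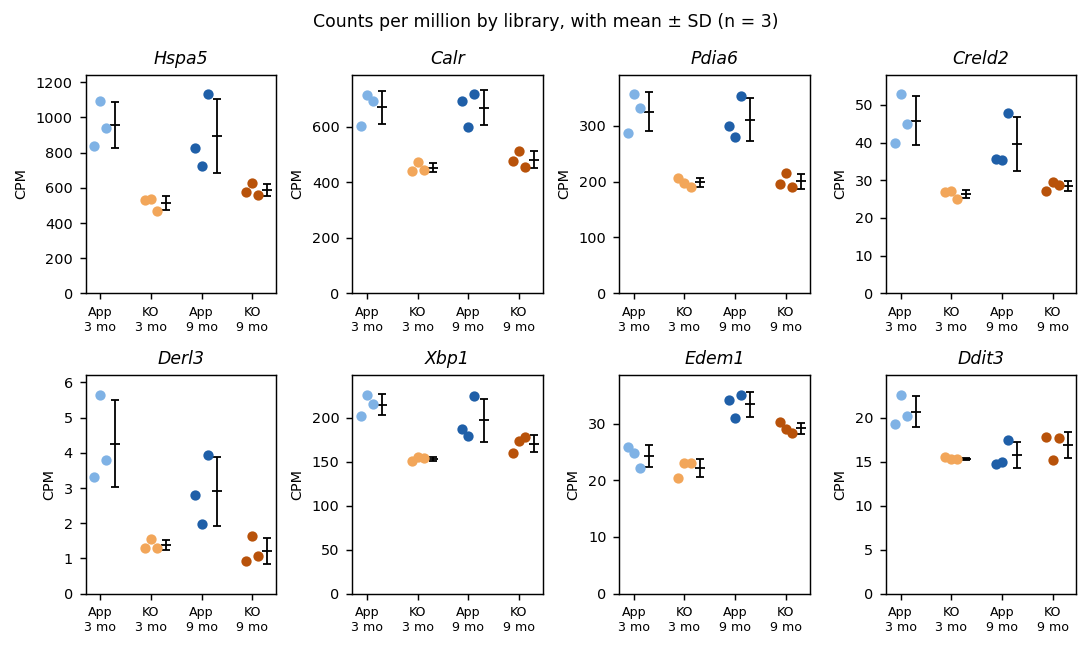
CPM of 8 members in each library (points) with the mean and SD of the 3 libraries of a group (bars), in App-KI (blue) and Trem2-KO (orange) mice at 3 and 9 months. Hspa5, Calr, Pdia6, Creld2 and Derl3 have no Trem2-KO library as high as the lowest App-KI library of the same age, Edem1 is higher at 9 months, and Ddit3 is highest in App-KI at 3 months.

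Set beside the promoters, 5 of the 9 members with an ERSE fell at 3 months (median log2 fold change -0.56), as did 3 of the 21 without one (median -0.16). Folding genes make up 7 of the 9 with an element. Among folding genes alone the median was -0.56 for the 7 with an ERSE and -0.55 for the 5 without, and 4 and 1 of them fell. At 9 months 5 of 9 members with the element fell (median -0.47) and 1 of 21 without (median -0.09). Among folding genes, 4 of 7 with it fell at that age (median -0.47) and 0 of 5 without (median -0.41). Of 28 genes with an ERSE that are not members, 11 were tested, and 0 of these fell or rose at either age (median -0.03 at 3 months and -0.08 at 9 months).

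Libraries of the same group differed together in the folding genes. All 14 folding genes were highest in library 2 among the App-KI libraries of 3 months, and all 14 were highest in library 3 among those of 9 months. In Trem2-KO, 12 of 14 were highest in library 2 at 9 months, and at 3 months no library held more than 7. ERAD genes followed much the same order in App-KI, with 6 of 8 highest in library 2 at 3 months and 6 of 8 in library 3 at 9 months. For the IRE1 arm it was 2 of 3 in each. PERK-arm genes showed no such order, with 2 of 6 and 3 of 6 highest in the same App-KI libraries. Hspa5, for example, was at 1094 CPM in library 2 against 837 and 939.9 CPM in the others at 3 months, and at 1131 CPM in library 3 against 828 and 723 CPM at 9 months.

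The spread itself was larger in App-KI. The SD of log2 CPM was larger in App-KI than in Trem2-KO for 13 of 14 folding genes at 3 months and for 13 of 14 at 9 months, against 49.7% and 46.2% of all tested genes. The median SD of the folding genes was 0.152 in App-KI and 0.0617 in Trem2-KO at 3 months, and 0.201 and 0.0948 at 9 months. Since the genes of a library share its RNA, these counts describe 3 libraries a group and not 14 independent genes. They bear on the tests, as Hspa5, Sdf2l1 and Manf have both large differences and large SEs.

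Choroid plexus content moved with this order. In all 4 groups the library with the highest choroid plexus score was also the library with the highest folding score. The choroid scores of App-KI libraries 1 to 3 at 3 months, as mean log2 CPM of the markers, were 2.02, 6.08 and 4.13, beside folding scores of 7.44, 7.75 and 7.602. At 9 months the choroid scores of App-KI were 5.898, 1.54 and 5.904, beside folding scores of 7.49, 7.35 and 7.77. In Trem2-KO at 3 months the choroid scores were 4.83, 5.77 and 4.99, beside folding scores of 7.018, 7.035 and 6.958. At 9 months they were 6.92, 7.02 and 2.36, beside 7.15, 7.22 and 7.04. Libraries 1 and 3 of App-KI at 9 months had nearly equal choroid scores and folding scores of 7.49 and 7.77. Every Trem2-KO library was below every App-KI library of its age in folding score. At 3 months the choroid scores of Trem2-KO lay within the range of App-KI, so no knockout library of that age had a choroid score as low as the lowest in App-KI. The part of choroid plexus content in the genotype difference was not tested.

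**Figure D4:**
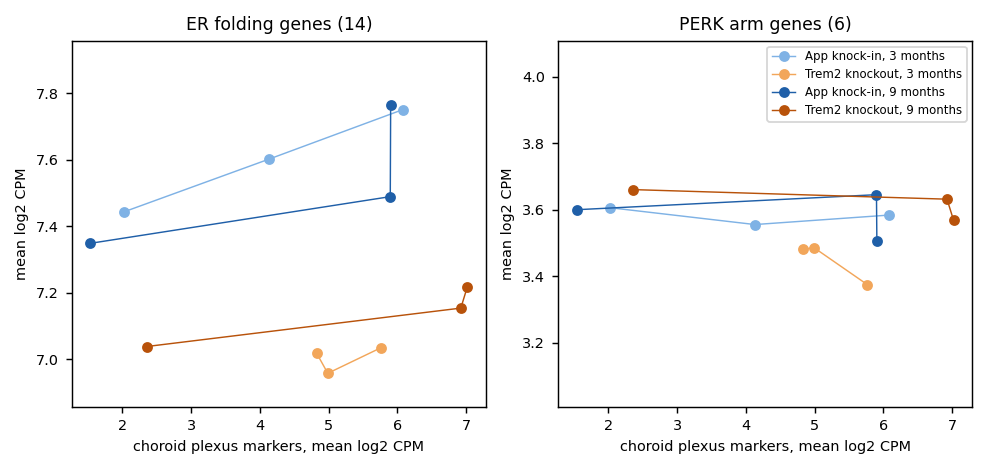
Mean log2 CPM of the 14 folding genes (left) and of the 6 PERK-arm genes (right) against that of the choroid plexus markers, 1 point per library, with lines joining the 3 libraries of a group in order of choroid score. Folding scores of Trem2-KO libraries (6.96 to 7.22) lie below all App-KI libraries (7.35 to 7.77), and PERK-arm scores lie between 3.37 and 3.66.

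With age, calls among the members were few, and in App-KI near the share over all genes. In App-KI, from 3 to 9 months, 1 member rose and 1 fell, whereas 3.95% of all tested genes rose and 2.71% fell, and the members' median log2 fold change was 0.00. In Trem2-KO 1 member rose and 0 fell, against 5.68% and 3.02% of all genes. There the median was 0.11 and 30 of 34 fold changes were positive, where 49.6% of all tested genes had a negative one. All 9-month libraries lay above all 3-month libraries in 10 members (13.5% of all genes). App-KI had 2 such members (11.2% of all genes). In App-KI, 1 member changed without App-KI library 2 at 3 months, and also 1 without App-KI library 1 or library 2 at 9 months, while 5 changed without App-KI library 3 at 9 months. In Trem2-KO the count was 2 without App-KI library 2, App-KI library 3 or Trem2-KO library 3 of 9 months, and 3 without Trem2-KO library 1 of 9 months.

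Edem1 rose in both genotypes. Its level in App-KI was 25.8, 24.9 and 22.1 CPM at 3 months and 34.2, 30.9 and 35.1 CPM at 9 months, a rise of 0.46 ± 0.08 on the log2 scale (adjusted p = 0.001075). In Trem2-KO it went from 20.4, 23.1 and 23.1 CPM to 30.2, 29.0 and 28.3 CPM, a rise of 0.39 ± 0.08 (adjusted p = 0.005399). The 9-month libraries were above the 3-month libraries in both, and both rises held in all 12 fits that left out a library. Ddit3 fell with age in App-KI, by 0.39 ± 0.10 (adjusted p = 0.0173), from the 19.2 to 22.6 CPM to the 14.8 to 17.5 CPM given above, and held in 9 of those 12 fits. In Trem2-KO its log2 difference was 0.14 ± 0.10 (adjusted p = 0.4333).

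The folding genes had no shared direction with age in App-KI, where 7 of 14 fold changes were positive. In Trem2-KO all 14 were positive, with a median of 0.13, but 0 of 14 passed in edgeR (2 at an unadjusted p below 0.05; 1 with DESeq2, Dnajc3, where DESeq2 found 6.79% of all genes higher). Dnajc3 was at 105, 104 and 98.9 CPM at 3 months and at 141, 135 and 117 CPM at 9 months in Trem2-KO (0.36 ± 0.11, adjusted p = 0.08458), with groups that did not overlap. Sec61b had negative differences in both genotypes, at -0.39 and -0.44 (adjusted p of 0.132 and 0.06384), and its 9-month libraries were below its 3-month libraries in both.

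Whether the genotype difference itself changed with age was tested as an interaction. With edgeR 0 of 34 members passed (2 at an unadjusted p below 0.05, and 0 with DESeq2), against 0.266% of all tested genes. The 2 were Ddit3, at 0.53 ± 0.14 (adjusted p = 0.1978), and Xbp1, given above. The estimate was positive for 31 of 34 members and for all 14 folding genes, whose median was 0.16. Over all tested genes 48.4% of these estimates were negative. All 9 members that fell at either age had the larger fall at 3 months, as did all 14 folding genes in their estimates, a difference between ages that no single gene's test supported.

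**Figure D5:**
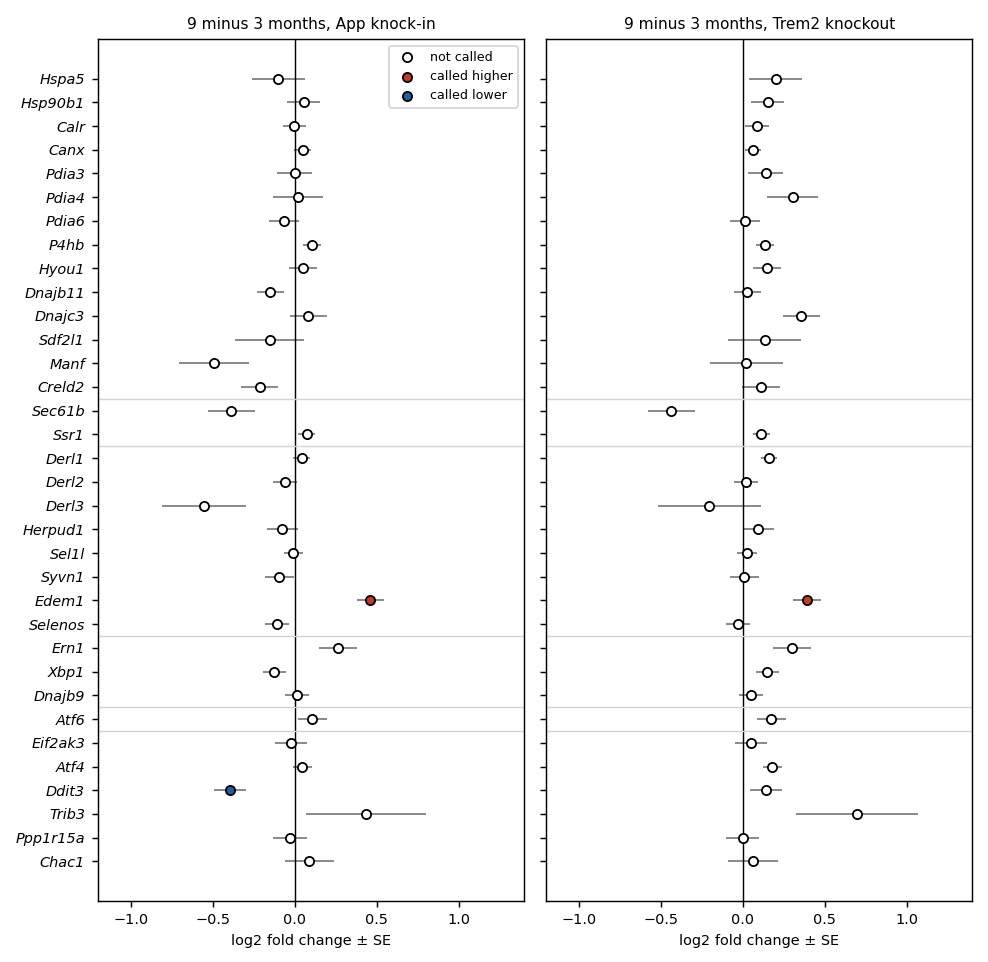
Log2 fold change from 3 to 9 months (points; bars, SE) for each member in App-KI (left) and Trem2-KO (right), 3 libraries a group, with filled points where the adjusted p was below 0.05. Edem1 is filled on both sides (0.46 and 0.39) and Ddit3 on the left only (-0.39), and all 14 folding genes lie right of 0 in Trem2-KO, from 0.01 to 0.36.

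Other genes of the same pathways were also read. Of 107 such genes, listed by function in folding, ERAD, translocation and glycosylation, IRE1 and ATF6 signalling, and PERK and integrated stress signalling, 2 fell and 0 rose at 3 months (0.423% of all tested genes fell). They were Uggt1, the sensor that returns misfolded glycoproteins to calnexin and calreticulin (fell by 0.40 ± 0.08, adjusted p = 0.01635), and Creld1, a membrane relative of Creld2 (fell by 0.34 ± 0.07, adjusted p = 0.01749). At 9 months 3 fell and 0 rose (1.39% of all tested genes fell), and these were Creld1 (0.30 lower on the log2 scale), Ero1b, an oxidase that recharges disulphide isomerases (by 0.32 ± 0.08, adjusted p = 0.04813), and Wfs1, the ER membrane protein of Wolfram syndrome (by 0.33 ± 0.08, adjusted p = 0.04058). Of the 12 fits that left out a library, Uggt1 and Creld1 each fell in 7 at 3 months. At 9 months Creld1 fell in 9, Ero1b in 4 and Wfs1 in 5. Over all 107 the medians were -0.05 and 0.02 at the 2 ages. Abundant genes that did not pass included Ganab, the glucosidase subunit that trims new glycoproteins (-0.04 at 3 months), and Vcp, the ATPase that extracts ERAD substrates (0.06).

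With age, 3 of these 107 genes rose and 5 fell in App-KI, where 3.95% of all tested genes rose and 2.71% fell. In Trem2-KO 10 rose and 1 fell, where 5.68% of all tested genes rose and 3.02% fell. Among those that rose in both genotypes were Atf3, a stress-induced partner of CHOP and ATF4, by 1.29 ± 0.26 in App-KI and 1.11 ± 0.28 in Trem2-KO, and Nfe2l2, the oxidative stress factor NRF2, by 0.58 ± 0.09 and 0.60 ± 0.09. Wfs1 fell in both, by 0.28 ± 0.08 and by 0.53 ± 0.08. Its fall held in 5 of the 12 fits that left out a library in App-KI, and in all 12 in Trem2-KO. In Trem2-KO Slc7a11, a cystine transporter and ATF4 target, and Eif2ak2, the eIF2alpha kinase PKR, rose by 0.80 ± 0.15 and 0.67 ± 0.16, whereas none of the 6 PERK-arm members passed there (edgeR; 1 at an unadjusted p below 0.05, Atf4 at 0.18 ± 0.06 with an adjusted p of 0.05537; 0 with DESeq2). Among fits that left out a library, Slc7a11 and Nfe2l2 rose in Trem2-KO in all 12, Eif2ak2 in 10 and Atf3 in 9. Slc7a11 and Atf3 did not pass when only the 6 Trem2-KO libraries were fitted. Once meningeal content entered the fit, none of the changes named here for Trem2-KO was called. Calls over all genes in that fit dropped from 1667 to 56. The lowest estimate for Slc7a11 under any alternative was 0.01. Cell-type markers also rose with age in Trem2-KO, in 11 of 12 microglial, 5 of 10 astrocyte and 5 of 10 meningeal fibroblast markers. The counts were 4 of 8 for endothelium, 3 of 7 for border macrophages and 2 of 8 for vessel wall (mural) cells. Of 10 oligodendrocyte markers 3 fell, as did 2 of 10 neuronal markers. In App-KI 12 of 12 microglial markers rose and 0 of 10 meningeal fibroblast markers. The part of these cell types in the changes was not tested.

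Overlapping genes limit some of these counts. In GENCODE M21, 11 members overlap another gene and 4 of them one on the same strand, among them Hsp90b1 and Manf, and the strand setting of the counting is not given in the sources used here. Pdia6, Pdia3, Derl2, Syvn1 and Ppp1r15a overlap a gene on the opposite strand. Their counts may hold reads of that neighbour or lack reads from the shared stretch.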

How the data were processed

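RNA-seq libraries of the hippocampus of 12 mice were compared. The authors deposited raw counts per gene, without normalisation, as the whole-number values show. Per the submitters' processing notes the build was GRCm39 and the tools were DESeq2 1.36.0, R 4.2.0, featureCounts 2.0.3 and STAR 2.7.10a, with no roles given; neither strand setting nor annotation release is stated there. Symbols came from GENCODE M21 (GRCm38), which matched 52073 of 56980 identifiers; promoters came from RefSeq on GRCm38.p6.

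Genes were filtered with filterByExpr (minimum count 10, total 15), scaled by TMM and fitted with edgeR 4.0.16 (robust quasi-likelihood, R 4.3.3), with 1 term per group over all 12 libraries, which left 8 residual degrees of freedom, and 5 contrasts: genotype at each age, age in each genotype, and their interaction. Adjusted p values are Benjamini-Hochberg over 19152 genes. CPM used TMM-scaled totals, and scores are mean log2 CPM with a prior count of 2. The fit was tested on simulated counts. All members could be named; of each list of other pathway genes, the rule allowed 4 called genes by p and the 2 most abundant uncalled ones. The members and lists were chosen with earlier results of these data known. DESeq2 1.42.0 and the settings given under the closing section were alternatives.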

Additional observations from a re-analysis of the deposited data

How the results depend on the processing

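The alternatives were RLE size factors, no filter on low counts, DESeq2, a fit on the 6 libraries compared, the choroid plexus or the meningeal fibroblast score as a covariate, and leaving out each of the 12 libraries. No paired analysis was possible because the labels carry mouse identifiers and no replicate numbers. Members called between genotypes at 3 months (9) became 16 with DESeq2, 17 with 6 libraries and 17 with the choroid score; at 9 months (7) they became 11, 3 and 12, and 0 with the meningeal score, which moved the median log2 fold change from -0.159 to -0.0402. Members called with age in Trem2-KO (1) became 3 without the filter, 3 with DESeq2, 2 with 6 libraries, 4 with the choroid score and 0 with the meningeal score, which moved the median to 0.30 and that of the interaction to 0.40; the cause was not tested. With the meningeal score, calls over all genes went from 398 to 31 at 9 months and from 1667 to 56 with age in Trem2-KO. Leaving out a library gave 3 to 17 calls at 3 months (median -0.33 to -0.26), 2 to 10 at 9 months (-0.23 to -0.10), 1 to 5 with age in App-KI (-0.0964 to 0.0347), 1 to 3 with age in Trem2-KO (0.08 to 0.13) and 0 to 0 for the interaction (0.07 to 0.15). Calls over all genes then ran from 26 to 154 at 3 months and from 175 to 556 at 9 months. With age they ran from 788 to 1523 in App-KI and from 769 to 1920 in Trem2-KO. Of 3026 values of single members under these alternatives, 67 lost a call, 83 gained one and 0 called values changed sign. With 3 mice a group, Hspa5 at 3 months lay near the threshold, with a log2 difference of -0.90 and an SE of 0.165. Without App-KI library 3 at 9 months its SE was 0.098 and its adjusted p 0.001305 (edgeR). Smaller differences with smaller SEs passed, such as Sel1l at -0.31 ± 0.06.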

Other observations

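Across the 34 members, the genotype difference at 3 months and that at 9 months, which share no library, had a Pearson r of 0.933 and a Spearman rho of 0.87; genes are not independent replicates, and no test was made. The next 3 relations use App-KI library 2 at 3 months and library 3 at 9 months, chosen because their folding genes were the highest of their groups. The log2 difference of App-KI library 3 at 9 months from the other libraries of its group had r = -0.644 and rho = -0.694 with the genotype difference at 3 months. For App-KI library 2 at 3 months, against the genotype difference at 9 months, r was -0.745 and rho was -0.655. The deviations of these libraries from their groups, one at each age, had r = 0.754 and rho = 0.763 with each other. Each of these compares different mice, and the values are a description of single libraries over genes.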
